A study of Mus musculus with 9 samples.

Results

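The TNF superfamily ligands and their receptors were examined in whole mandibles of wild type (WT) mice and of mice labelled *FcγRIIB*-/-. The set was defined by gene symbol. It took in the rows named Tnfsf or Tnfrsf with a number, together with *Tnf*, *Lta*, *Ltb*, *Cd40*, *Cd40lg*, *Cd27*, *Cd70*, *Fas*, *Fasl*, *Ngfr*, *Eda*, *Edar* and *Eda2r*, and it left out the RANKL, RANK and osteoprotegerin genes. This gave 42 of the 27179 rows of the count table. Poly(A) RNA was sequenced as stranded libraries from 5 WT mice and 4 mice labelled *FcγRIIB*-/-, which lack by label the inhibitory receptor for IgG and are used as a model of lupus with bone loss. All 9 mice were males on the C57BL/6 strain at 6 months of age, and the labels name no treatment. The mandibles were ground whole with the teeth, so each library pools bone, marrow, tooth, muscle and oral epithelium, and in such bulk RNA fewer cells of a type and less RNA per cell cannot be told apart.

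The ligands of this superfamily act as trimers, mostly as membrane proteins that can be shed, and gather their receptors into clusters on the neighbouring cell. Several receptors with a cytoplasmic death domain recruit TRADD or FADD and can trigger cell death, whereas many of the other receptors bind TRAF proteins directly and switch on NF-κB and MAP kinases. In bone and marrow the family is known for driving inflammation and osteoclast formation, for keeping B cells alive and for co-stimulating T cells, and the ectodysplasin branch is known for shaping teeth, hair and glands.

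Total counts lay between 21453880 and 28991631 per mouse, and 16329 genes had enough reads to be tested. Libraries labelled *FcγRIIB*-/- did not have less RNA of *Fcgr2b*, the targeted gene. Its mean was 24.0 CPM (counts scaled to the normalised library size) in WT and 27.8 CPM in the libraries labelled *FcγRIIB*-/- (log2 fold change 0.21, standard error 0.20, adjusted p = 0.442), so the groups are named below by their labels. WT replicate 2 was the highest mouse at 38.3 CPM, the other WT mice had 17.0 to 23.1 CPM and the libraries labelled *FcγRIIB*-/- 26.0 to 32.1 CPM. Without WT replicate 2 the log2 fold change was 0.46 and passed as higher (adjusted p = 0.0131). The osteoblast genes *Col1a1*, *Alpl*, *Bglap* and *Dmp1* were at means of 31300, 671, 314 and 273 CPM in WT and 32600, 723, 475 and 288 CPM in the libraries labelled *FcγRIIB*-/-, and of the 8 osteoblast markers 2 were lower, *Ibsp* (log2 fold change −0.64, adjusted p = 0.0426) and *Sp7* (−0.25, adjusted p = 0.016). Markers of further cell types differed as well. All 12 neutrophil, all 8 erythroid and all 8 megakaryocyte markers were lower in the libraries labelled *FcγRIIB*-/-, 6 of the 11 tested markers of keratinized epithelium were lower and 1 higher, and 6 of 9 skeletal muscle markers were higher.

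Promoter windows are shown for 3 immune members described below whose RNA was lower in the libraries labelled *FcγRIIB*-/-. They were picked because each holds a core of a transcription factor site, marked below, and no annotated exon base. The windows of the lower members *Tnfrsf14*, *Tnfrsf13b* and *Tnfsf8* hold neither of the marked cores and are not shown. The windows shown are RefSeq sequences of GRCm38.p6 (mm10), 250 bases upstream of the annotated start, written 5′ to 3′ on the strand of the gene. Capitals mark GAGGAA, a core of sites for PU.1 (a factor of myeloid cells and B cells), or TGTGGT, a core of RUNX sites, which here lies on the opposite strand and so reads as ACCACA. The windows shown are chr15:82224381-82224630 (minus strand) for *Tnfrsf13c*, chr17:57194182-57194431 (minus strand) for *Tnfsf14* and chr4:145246871-145247120 (minus strand) for *Tnfrsf1b*.
Tnfrsf13c: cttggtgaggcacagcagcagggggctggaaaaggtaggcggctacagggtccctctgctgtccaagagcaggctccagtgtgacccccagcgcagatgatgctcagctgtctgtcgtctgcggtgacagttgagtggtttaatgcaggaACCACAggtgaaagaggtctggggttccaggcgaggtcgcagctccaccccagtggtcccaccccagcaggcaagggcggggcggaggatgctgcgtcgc
Tnfsf14: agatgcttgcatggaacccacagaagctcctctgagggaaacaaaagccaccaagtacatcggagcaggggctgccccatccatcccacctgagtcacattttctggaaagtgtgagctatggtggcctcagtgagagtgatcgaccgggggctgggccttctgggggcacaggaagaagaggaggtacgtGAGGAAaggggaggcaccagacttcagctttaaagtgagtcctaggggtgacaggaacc
Tnfrsf1b: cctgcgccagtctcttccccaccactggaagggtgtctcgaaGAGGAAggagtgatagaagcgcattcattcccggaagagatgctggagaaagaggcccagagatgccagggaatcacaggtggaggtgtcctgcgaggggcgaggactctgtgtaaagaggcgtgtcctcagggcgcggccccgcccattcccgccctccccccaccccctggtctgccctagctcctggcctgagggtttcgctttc
Such windows were found for 32 of the 42 members, 36 windows in all. GAGGAA on either strand was present in 12 of the 36, against 23.3% of 32851 promoters of the same length. TGTGGT was present in 3 of them, against 14.0% of promoters, and the NF-κB consensus in 4 of them, against 7.25%. A match of letters is a description and not a binding site.

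Of the 42 members, 34 were tested, 11 ligands, 22 receptors and 1 RNA from the strand opposite *Tnfsf13*. Lower levels in the libraries labelled *FcγRIIB*-/- passed an adjusted p of 0.05 for 10 members (29.4% of those tested), where 19.3% of all tested genes were lower. Higher levels passed for 2 members (5.88%), where 14.0% of all genes were higher. These 10 were the ligands *Ltb*, *Tnfsf14*, *Tnfsf8* and *Eda* and the receptors *Tnfrsf1b*, *Tnfrsf14*, *Tnfrsf13b*, *Tnfrsf13c*, *Tnfrsf23* and *Tnfrsf19*, and the 2 were the receptors *Tnfrsf25* and *Tnfrsf12a*. In 8 members every mouse labelled *FcγRIIB*-/- lay below every WT mouse, which held for 17.5% of all genes. The opposite order held for 0 members and for 12.1% of all genes. The same 10 and 2 members passed with DESeq2, which called 19.6% of all genes lower and 17.3% higher. As a median, the log2 fold change of the 34 members was −0.33, and that of all tested genes was 0.01. In the 22 members that passed in neither direction it ran from −0.84 to 0.33.

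**Figure D1:**
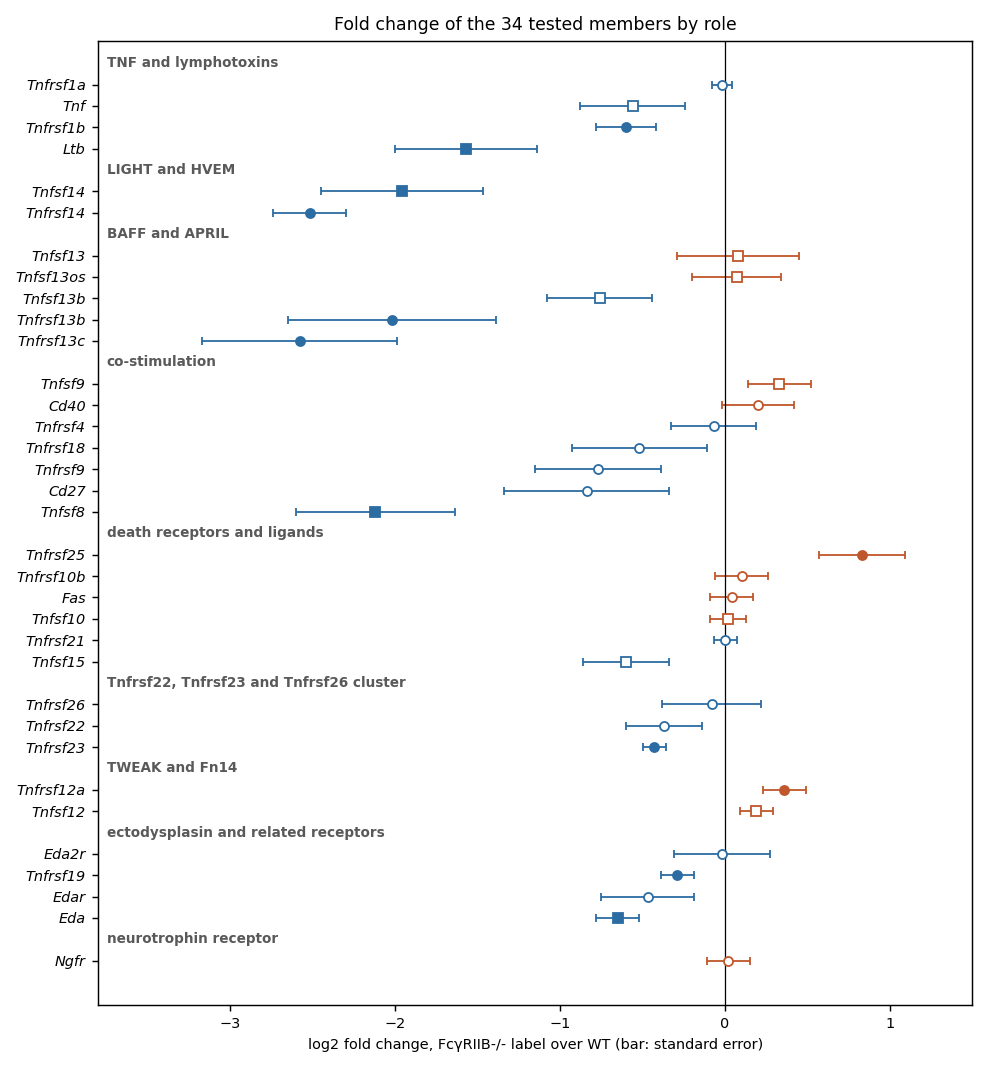
Log2 fold change of each tested member between the libraries labelled *FcγRIIB*-/- and WT (horizontal axis, bars are standard errors), grouped by ligand and receptor branch (squares ligands and the opposite-strand RNA, circles receptors, filled where adjusted p was under 0.05, blue at or below 0 and orange above). The filled points at or below −1.57 are *Ltb* and the LIGHT, HVEM, BAFF receptor, TACI and CD30 ligand genes, while *Tnfrsf1a* and *Tnfrsf21* lie at −0.02 and 0.00.

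Levels of different members were compared per kilobase of exon (RPKM). The most abundant member in WT was *Tnfrsf1a*, at a mean of 44.4 RPKM, followed by *Tnfrsf19* at 34.8, *Tnfrsf12a* at 15.6 and the ligand *Tnfsf12* at 11.7 RPKM. *Tnfrsf1b* followed at 8.59 RPKM. *Tnf* itself stood at 1.49 RPKM and the B cell receptor gene *Tnfrsf13c* at 1.0 RPKM. The 5 most abundant members are thus not those with the largest fold changes, and all members together made up 491 to 597 CPM in WT and 449 to 479 CPM in the libraries labelled *FcγRIIB*-/-.

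The TNF branch was examined first, with the question whether the RNA of the cytokine or of its receptors differed in the mandible. *Tnf*, the main inflammatory ligand, had 3.19, 4.01, 1.73, 1.47 and 1.80 CPM in the WT mice, in the order of their replicate numbers, and 1.40, 1.39, 2.16 and 1.67 CPM in the libraries labelled *FcγRIIB*-/-. WT replicates 1 and 2 were highest and the groups overlapped (log2 fold change −0.56, standard error 0.32, adjusted p = 0.204). Without WT replicate 2 the value was −0.29 (adjusted p = 0.458).

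*Tnfrsf1a*, the death domain receptor of TNF that most cells carry, had 116, 121, 108, 108 and 122 CPM in WT and 113, 110, 116 and 114 CPM in the libraries labelled *FcγRIIB*-/-. All 9 mice fell in one narrow range (log2 fold change −0.02, standard error 0.06, adjusted p = 0.795). *Tnfrsf1b*, the TNF receptor without a death domain that is found mainly on immune and endothelial cells, had 29.1, 48.8, 25.9, 28.1 and 32.1 CPM in WT and 19.9, 22.3, 25.5 and 19.1 CPM in the libraries labelled *FcγRIIB*-/-. The groups did not overlap, although WT replicate 3 and replicate 3 of the other group came close, and WT replicate 2 stood well above the rest (log2 fold change −0.60, standard error 0.18, adjusted p = 0.0265). Without WT replicate 2 the fold change was −0.39 (adjusted p = 0.0249). Leaving out replicate 1, 2 or 4 of the libraries labelled *FcγRIIB*-/- ended the call, at a largest adjusted p of 0.071. For each 100 counts of *Tnfrsf1a* there were 25.1, 40.5, 23.9, 26.1 and 26.3 counts of *Tnfrsf1b* in WT and 17.6, 20.2, 22.1 and 16.8 in the libraries labelled *FcγRIIB*-/-, a description of the same counts with no test of its own. This ratio was lower in every mouse labelled *FcγRIIB*-/- than in any WT mouse.

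*Ltb* encodes lymphotoxin beta, a membrane ligand of lymphocytes that maintains lymphoid tissue. It had 4.09, 15.5, 4.63, 4.04 and 5.74 CPM in WT and 2.31, 1.43, 2.67 and 2.74 CPM in the libraries labelled *FcγRIIB*-/-. The groups did not overlap, and WT replicate 2 was far above the other mice (log2 fold change −1.57, standard error 0.43, adjusted p = 0.0191). Without that mouse the fold change was −1.0 (adjusted p = 0.00943), and without replicate 2 of the libraries labelled *FcγRIIB*-/- the call was lost at an adjusted p of 0.053. Its receptor gene *Ltbr*, which is not in the set, was at a mean of 53.2 CPM in WT and 55.3 CPM in the libraries labelled *FcγRIIB*-/- (log2 fold change 0.06, standard error 0.05, adjusted p = 0.399). *Lta*, the partner of *Ltb* in the lymphotoxin trimer, had 1 to 26 counts per mouse and was not tested. *Ltb*, *Tnf* and *Lta* lie side by side within 11.1 kb on chromosome 17 (chr17:35194507-35205578, mm10), and of the 3 only *Ltb* passed the test.

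LIGHT and its receptor HVEM, a pair that co-stimulates T cells and also acts on myeloid cells, were both lower. *Tnfrsf14*, which encodes HVEM, had 6.77, 7.74, 5.44, 5.40 and 8.74 CPM in WT and 1.33, 1.20, 0.805 and 1.42 CPM in the libraries labelled *FcγRIIB*-/-. No WT mouse was below 5.40 CPM and no other mouse above 1.42, and the fitted level was 5.72 times as high in WT (log2 fold change −2.52, standard error 0.22, adjusted p = 9.85e-05). It was called with any 1 of the 9 mice left out, with log2 fold changes between −2.60 and −2.37. *Tnfsf14*, the gene of LIGHT, had 1.92, 3.33, 0.964, 1.54 and 2.85 CPM in WT and 0.631, 0.0924, 0.678 and 0.760 CPM in the libraries labelled *FcγRIIB*-/-. These values rest on 25 to 83 counts in WT and 2 to 18 counts in the other group, which did not overlap (log2 fold change −1.96, standard error 0.49, adjusted p = 0.0125). *Tnfsf14* shares a stretch of 88.9 kb on chromosome 17 with *Tnfsf9*, the ligand of 4-1BB, and with *Cd70*, neither of which was called. *Tnfsf9* ranged from 1.23 to 1.41 CPM in WT and from 1.39 to 2.23 CPM in the libraries labelled *FcγRIIB*-/- and did not pass (log2 fold change 0.33, standard error 0.19, adjusted p = 0.204), and *Cd70* had no more than 2 counts in any mouse.

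The BAFF and APRIL branch keeps B cells and plasma cells alive. Its lower members were receptors of B cells. *Tnfrsf13c*, the BAFF receptor of mature B cells, had 1.12, 5.30, 1.0, 1.21 and 1.64 CPM in WT and 0.455, 0.323, 0.212 and 0.355 CPM in the libraries labelled *FcγRIIB*-/-. The groups did not overlap, with 26 to 132 counts in WT against 5 to 13 counts (log2 fold change −2.58, standard error 0.59, adjusted p = 0.00813). Without WT replicate 2, the highest mouse, the fold change was −1.84 (adjusted p = 0.00232). *Tnfrsf13b*, which encodes TACI, a receptor that both BAFF and APRIL bind, had 0.869, 2.53, 0.501, 0.734 and 0.781 CPM in WT and 0.140, 0.0462, 0.381 and 0.507 CPM in the libraries labelled *FcγRIIB*-/-. WT replicate 3 and replicate 4 of the other group touched, at 13 and 10 counts, so the groups overlapped (log2 fold change −2.02, standard error 0.63, adjusted p = 0.0319). The call was lost without WT replicate 2 (−1.44, adjusted p = 0.0503) and, at adjusted p up to 0.0874, without replicate 1, 2 or 3 of the libraries labelled *FcγRIIB*-/-.

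The ligand side of the branch did not pass. *Tnfsf13b*, which encodes BAFF and is made mainly by myeloid and stromal cells, had 1.99, 3.69, 1.70, 2.31 and 3.75 CPM in WT and 1.93, 0.924, 1.36 and 2.13 CPM in the libraries labelled *FcγRIIB*-/-. Replicates 1 and 4 of the latter lay inside the WT range (log2 fold change −0.76, standard error 0.32, adjusted p = 0.0904). *Tnfsf13*, the gene of APRIL, and its opposite-strand RNA *Tnfsf13os* ranged over all mice from 0.362 to 1.21 CPM and from 0.466 to 0.946 CPM (log2 fold changes 0.08 and 0.07, adjusted p = 0.88 and 0.855). Both are uncertain, since *Tnfsf13*, *Tnfsf13os*, *Tnfsf12* and a read-through gene share exons within 14.1 kb on chromosome 11 and the strand setting of the counting was not given in the sources used here. *Tnfrsf17*, the plasma cell receptor BCMA, had 3 to 16 counts per mouse in WT and 0 to 10 in the libraries labelled *FcγRIIB*-/- and was not tested.

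**Figure D2:**
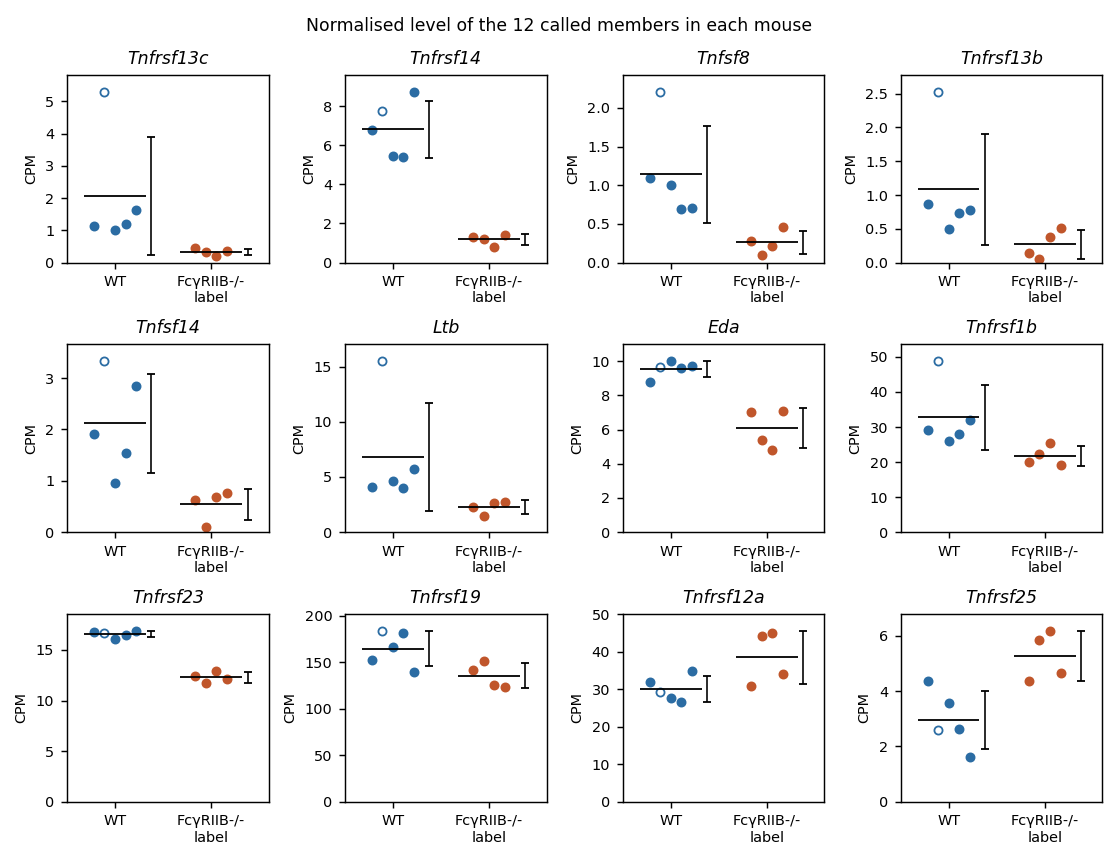
Level of each of the 12 members past an adjusted p of 0.05 in every mouse (vertical axes in CPM from 0, WT in blue, libraries labelled *FcγRIIB*-/- in orange, line at the mean and bar ± SD, open circle WT replicate 2). For *Tnfrsf14* and *Tnfrsf23* the 2 groups stand wholly apart, while for *Ltb*, *Tnfrsf13c*, *Tnfrsf13b*, *Tnfsf8* and *Tnfrsf1b* the open circle sets much of the WT spread.

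Among the co-stimulatory members, which tune T cell responses, *Tnfsf8* was the one called. *Tnfsf8* encodes CD30 ligand, found on activated T cells and other blood cells, and had 1.09, 2.21, 1.0, 0.698 and 0.703 CPM in WT against 0.280, 0.0924, 0.212 and 0.456 CPM in the libraries labelled *FcγRIIB*-/-. The groups did not overlap on 18 to 55 counts in WT and 2 to 9 counts in the other group (log2 fold change −2.12, standard error 0.48, adjusted p = 0.00803). Without WT replicate 2 the value was −1.72 (adjusted p = 0.00941). Its receptor CD30, from *Tnfrsf8*, had 0 to 12 counts in WT and 0 to 2 counts in the libraries labelled *FcγRIIB*-/-, too few to test. *Tnfsf15* and *Tnfsf8* are neighbours within 136.9 kb on chromosome 4, and *Tnfsf15* passed in neither direction.

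Of the other tested co-stimulatory members, *Cd27*, *Tnfrsf9* (4-1BB) and *Tnfrsf18* (GITR) had log2 fold changes of −0.84, −0.77 and −0.52 (adjusted p = 0.215, 0.139 and 0.354). *Cd27* ranged from 0.694 to 3.45 CPM in WT and from 0.601 to 0.890 CPM in the libraries labelled *FcγRIIB*-/-, *Tnfrsf9* from 0.898 to 3.29 and from 0.736 to 1.19 CPM, and *Tnfrsf18* from 0.925 to 2.61 and from 0.385 to 1.34 CPM. In all 3 the highest mouse was WT replicate 2, and without it the log2 fold changes were −0.14, −0.33 and −0.15. *Tnfrsf4* (OX40) ranged from 1.25 to 3.25 CPM in WT and from 1.72 to 2.13 CPM in the libraries labelled *FcγRIIB*-/- (log2 fold change −0.07, adjusted p = 0.85). *Cd40*, the receptor by which T cells license B cells and dendritic cells, ranged from 4.88 to 9.31 CPM in WT and from 5.57 to 10 CPM in the libraries labelled *FcγRIIB*-/- (log2 fold change 0.20, standard error 0.22, adjusted p = 0.502). Its ligand *Cd40lg* had 2 and 13 counts in WT replicates 1 and 2, 1 count in replicate 4 of the libraries labelled *FcγRIIB*-/- and 0 in every other mouse. The count of 13 and the highest levels of *Cd27*, *Tnfrsf9* and *Tnfrsf18* thus came from the same WT mouse. *Tnfsf4* (OX40 ligand) had at most 5 counts, *Tnfsf18* (GITR ligand) at most 5 and *Fasl* at most 7 in any mouse. These last genes lie together on chromosome 1, between 9.17 and 9.54 Mb from *Fcgr2b*, and none was tested.

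The death receptor branch held 1 of the 2 higher members. *Tnfrsf25*, which encodes DR3, a death domain receptor on T cells, had 4.38, 2.61, 3.59, 2.64 and 1.6 CPM in WT and 4.38, 5.87, 6.19 and 4.66 CPM in the libraries labelled *FcγRIIB*-/-. The lowest mouse of the second group and the highest of the first were level at 4.38 CPM, so the groups met (log2 fold change 0.83, standard error 0.26, adjusted p = 0.031). The call was lost without WT replicate 4 and without replicate 2 or 3 of the libraries labelled *FcγRIIB*-/-, at a largest adjusted p of 0.0808. Of the 12 T cell markers 3 were lower and 0 higher, where 19.3% and 14.0% of all tested genes were. *Tnfrsf25* was in no planned ratio, so its level relative to T cell markers was not tested. *Tnfsf15*, the ligand of DR3 made by endothelium and myeloid cells, had 1.96, 2.01, 1.16, 1.40 and 1.02 CPM in WT and 1.12, 1.11, 0.763 and 0.963 CPM in the libraries labelled *FcγRIIB*-/-. It pointed the other way from its receptor without passing (log2 fold change −0.60, standard error 0.26, adjusted p = 0.102).

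The remaining tested genes of this branch lay within 0.10 of 0 on the log2 scale. *Fas*, a death receptor on many cell types, ranged from 9.45 to 12.4 CPM in WT and from 8.97 to 13.3 CPM in the libraries labelled *FcγRIIB*-/- (log2 fold change 0.04, standard error 0.13). *Tnfsf10*, which encodes TRAIL, a ligand that can kill cells, had 11.6, 14.7, 11.4, 14.7 and 11.2 CPM in WT and 13.2, 13.4, 12.8 and 12.2 CPM in the libraries labelled *FcγRIIB*-/-. The second group lay inside the range of the first (log2 fold change 0.02, standard error 0.11, adjusted p = 0.886). *Tnfrsf10b*, the mouse death receptor of TRAIL, ranged from 3.9 to 6.52 CPM in WT and from 5.47 to 6.99 CPM in the libraries labelled *FcγRIIB*-/- (log2 fold change 0.10, adjusted p = 0.659). *Tnfrsf21*, which encodes DR6, ranged from 28.9 to 33.7 and from 28.9 to 32.1 CPM (log2 fold change 0.00, adjusted p = 0.975).

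Mice also carry *Tnfrsf22* and *Tnfrsf23*, which encode decoy receptors of TRAIL that lack a working death domain, in a cluster with the related *Tnfrsf26* within 78.8 kb of chromosome 7 (chr7:143607685-143686436, mm10). *Tnfrsf23* had 16.8, 16.7, 16.1, 16.5 and 16.9 CPM in WT and 12.4, 11.7, 12.9 and 12.1 CPM in the libraries labelled *FcγRIIB*-/-. The spread within each group was small, 0.317 and 0.509 CPM as SD, and the groups stood apart although the difference was modest (log2 fold change −0.43, standard error 0.07, adjusted p = 0.00186). It was called with each of the 9 mice left out in turn. *Tnfrsf22* ranged from 1.80 to 2.57 CPM in WT and from 1.11 to 2.26 CPM in the libraries labelled *FcγRIIB*-/- (log2 fold change −0.37, standard error 0.23, adjusted p = 0.243). *Tnfrsf26* ranged from 2.02 to 5.18 CPM and from 1.79 to 4.0 CPM (log2 fold change −0.08, standard error 0.30, adjusted p = 0.865). The 3 genes are related copies that could share reads, and *Tnfrsf23* and *Tnfrsf26* overlap exons of a gene on the opposite strand, so their separate values are uncertain.

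TWEAK, from *Tnfsf12*, and its receptor Fn14, from *Tnfrsf12a*, act in tissue repair and in muscle. *Tnfrsf12a* had 32, 29.2, 27.7, 26.5 and 35 CPM in WT and 31.0, 44.2, 45.0 and 34 CPM in the libraries labelled *FcγRIIB*-/-. Replicates 2 and 3 of the second group were above all WT mice and its other mice were within the WT range (log2 fold change 0.36, standard error 0.13, adjusted p = 0.0496). It passed in 3 of the 9 fits that left out a mouse, at a largest adjusted p of 0.134. *Tnfsf12* had 19.9, 17.6, 17.4, 17.1 and 16.6 CPM in WT and 22.3, 18.2, 17.4 and 22.9 CPM in the libraries labelled *FcγRIIB*-/- and did not pass (log2 fold change 0.19, standard error 0.10, adjusted p = 0.178).

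The ectodysplasin branch includes genes needed for tooth and hair formation. *Eda*, the ligand, had 8.77, 9.63, 10, 9.62 and 9.72 CPM in WT and 7.04, 5.41, 4.83 and 7.09 CPM in the libraries labelled *FcγRIIB*-/-. The WT mice were close together and all above the other group, whose mice spread more (log2 fold change −0.65, standard error 0.13, adjusted p = 0.00525). *Eda* was called with each of the 9 mice left out. *Edar*, its receptor in epithelium, had 2.21, 1.97, 2.31, 2.39 and 1.52 CPM in WT and 1.44, 2.31, 0.805 and 1.47 CPM in the libraries labelled *FcγRIIB*-/-. Replicate 2 of the second group lay within the WT range and the difference did not pass (log2 fold change −0.47, standard error 0.28, adjusted p = 0.215). *Eda2r*, the receptor of the other ectodysplasin isoform, known from muscle, had 12.2, 4.57, 7.02, 8.66 and 9.60 CPM in WT and 11.8, 8.18, 8.26 and 4.92 CPM in the libraries labelled *FcγRIIB*-/-. Both groups covered the same range (log2 fold change −0.02, standard error 0.29, adjusted p = 0.968).

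*Tnfrsf19*, also called TROY, is a receptor of epithelial and mesenchymal progenitors. It had 153, 184, 166, 181 and 140 CPM in WT and 142, 151, 126 and 123 CPM in the libraries labelled *FcγRIIB*-/-. WT replicate 5 lay among the second group, so the groups overlapped (log2 fold change −0.29, standard error 0.10, adjusted p = 0.0464), and the call held in 2 of the 9 fits that left out a mouse and was lost with RLE and with upper quartile normalization. *Ngfr*, the neurotrophin receptor p75, ranged from 10.4 to 13.0 CPM in WT and from 9.7 to 15.2 CPM in the libraries labelled *FcγRIIB*-/- (log2 fold change 0.02, standard error 0.13, adjusted p = 0.907).

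Markers of blood cells were set beside the lower immune members. In the B-lineage panel, 8 of 10 markers were lower and 0 higher, and the summed level was 35.7 to 129 CPM in WT and 6.52 to 25.2 CPM in the libraries labelled *FcγRIIB*-/-. The plasma cell panel had 3 of 8 lower (363 to 1110 against 304 to 323 CPM), the T cell panel 3 of 12 (19.0 to 87.0 against 12.7 to 18.7 CPM) and the NK cell panel 3 of 4 tested (5.09 to 10.4 against 1.66 to 5.32 CPM). Of all tested genes 19.3% were lower, so 3 of 12 is not far above that share. The T cell markers nevertheless had a median log2 fold change of −1.36, against 0.01 for all tested genes. They ran from −1.84 (*Cd2*) to −0.45 (*Cd247*). Apart from WT replicate 2, no WT mouse exceeded 30.5 CPM for the T cell panel. In the plasma cell panel *Fcrl5* and *Derl3* had positive log2 fold changes (1.34 and 0.10) without passing. The neutrophil panel ran from 1160 to 3530 CPM in WT and from 145 to 429 CPM in the libraries labelled *FcγRIIB*-/-, and 5 of 10 macrophage markers were lower, at 414 to 614 against 339 to 432 CPM. No panel had a marker at 0 in all mice. The highest mouse in the B-lineage, plasma cell, T cell and NK cell panels was WT replicate 2, with summed levels of 129, 1110, 87.0 and 10.4 CPM, as it was for *Ltb*, *Tnfrsf13c*, *Tnfrsf13b*, *Tnfsf8*, *Cd27*, *Tnfrsf9*, *Tnfrsf18* and *Tnfrsf1b*. By mean log2 CPM that mouse was also highest in the osteoblast (9.45) and Schwann cell (5.2) panels. It was the lowest of all mice for skeletal muscle (9.26) and the lowest WT mouse for keratinized epithelium (7.79).

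**Figure D3:**
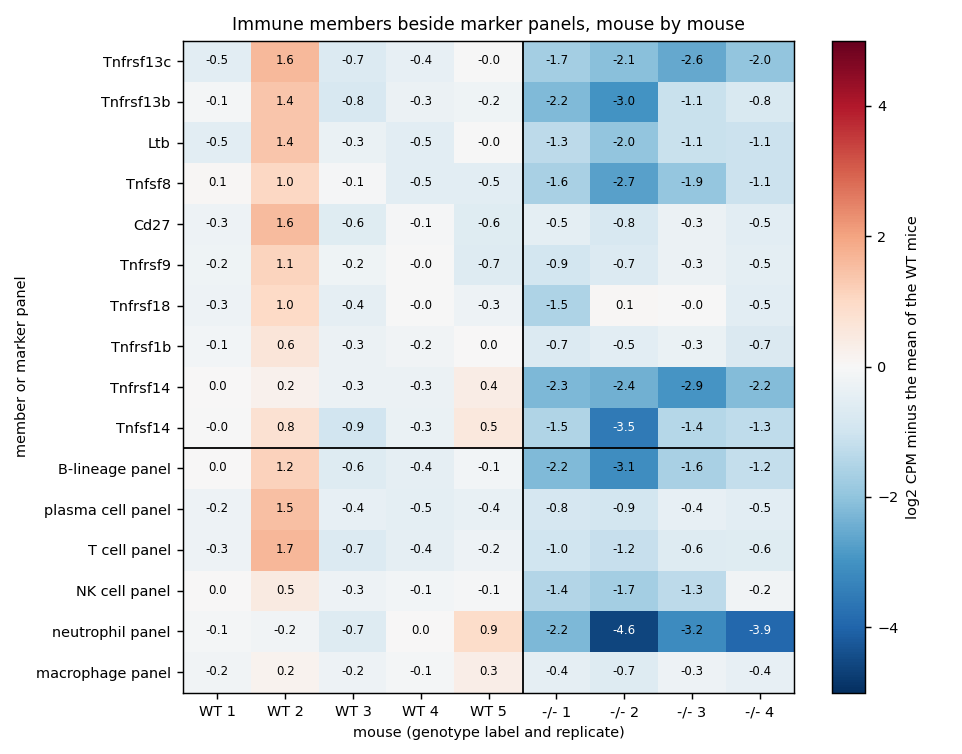
Log2 CPM of 10 immune members and of 6 marker panels (rows) in each mouse (columns), as the difference from the mean of the WT mice, with panels as the mean over their tested markers. WT replicate 2 is above that mean in every row but the neutrophil panel (−0.2), and every row but *Tnfrsf18* is below it in all 4 mice labelled *FcγRIIB*-/-. As WT replicate 2 raises the mean, the other WT mice are also below it in rows such as *Tnfrsf13c*, *Ltb*, *Cd27* and the T cell panel.

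To see how far members followed such panels, the log2 level of a member was set against the mean log2 level of the panel of a cell type known to express it, mouse by mouse, and the groups were compared by a two-sided exact permutation test. There were 23 such ratios of 25 planned, and *Tnfrsf14* was in no planned pair. The mice can be divided in 126 ways, which makes 0.00794 the smallest p, and p was adjusted over the 23. Set against the B-lineage panel, *Tnfrsf13c* differed between the groups by −0.06 (exact p = 0.952, adjusted 0.992) and *Tnfrsf13b* by 0.27 (exact p = 0.0873, adjusted 0.134). Relative to that panel no difference was thus detectable with 9 mice. In the fit these genes had log2 fold changes of −2.58 and −2.02, which is not the measure of the ratios. The ratios use log2 CPM with a prior count of 2, which shrinks differences at low counts. *Ltb* was 0.67 higher relative to the B-lineage panel (exact p = 0.0317, adjusted 0.0562), and *Cd40* was 2.24 higher (exact p = 0.00794, adjusted 0.0304), with every mouse labelled *FcγRIIB*-/- above every WT mouse. *Cd40* itself did not pass (log2 fold change 0.20), and the B-lineage markers had a median log2 fold change of −2.13. The *Cd40* ratio thus restates the lower panel and not a rise of *Cd40*.

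Set against the T cell panel, *Tnfsf8* differed by −0.97 (exact p = 0.0317, adjusted 0.0562). *Tnfrsf1b* differed by −0.12 relative to the macrophage panel (exact p = 0.54, adjusted 0.621) and by 2.91 relative to the neutrophil panel (exact p = 0.00794, adjusted 0.0304). Its fall was thus smaller than that of the neutrophil markers, and no difference from the mean of the macrophage markers was detectable. The macrophage markers did not move together. *Mrc1*, *Csf1r* and *Cx3cr1* had log2 fold changes of −0.93, −0.86 and −0.86, and *C1qa*, *C1qb* and *C1qc* of −0.06, 0.20 and 0.04. A ratio to this panel thus depends on which markers are used. *Tnf* differed by −0.01 relative to the macrophage panel (exact p = 0.992, adjusted 0.992). Relative to the neutrophil panel, *Tnfsf13b* was 2.74 higher (adjusted exact p = 0.0304) and *Tnfsf14* was 1.54 higher without passing (adjusted exact p = 0.0548). The neutrophil markers had a median log2 fold change of −3.13, against −0.76 for *Tnfsf13b* and −1.96 for *Tnfsf14*. Both ratios thus restate the larger fall of the panel.

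For the ectodysplasin branch, the panel was keratinized epithelium, whose 11 tested markers had a median log2 fold change of −1.95 but did not move together. *Lor*, *Krt1* and *Krt4*, genes of differentiated epithelium, were at −6.75, −6.44 and −5.67, whereas the basal cell genes *Krt5*, *Trp63* and *Krt14* were at 0.39, 0.31 and 0.24, of which *Krt5* passed as higher. Relative to the mean of all 11, *Eda* was 1.93, *Edar* 2.08 and *Tnfrsf19* 2.31 higher in the libraries labelled *FcγRIIB*-/- (adjusted exact p = 0.0406, 0.0304 and 0.0406). The log2 fold changes of the members themselves were −0.65, −0.47 and −0.29, each below those of the 3 basal cell genes, so the sign of such a ratio depends on which markers are used. With the panel median in place of the mean none of the 3 passed (adjusted exact p = 0.0548, 0.0522 and 0.0522). *Eda2r* itself did not pass, 6 of 9 skeletal muscle markers were higher, and the ratio of *Eda2r* to the muscle panel differed by −0.95 (adjusted exact p = 0.0304). The ratio of *Tnfrsf12a* to the muscle panel differed by −0.59 and did not pass (adjusted exact p = 0.264). Of the other ratios that passed, *Tnfsf9* was 0.75 higher against the macrophage panel (adjusted exact p = 0.0304) and *Tnfsf15* differed by −0.74 against the endothelial panel (adjusted exact p = 0.0406), which did not pass with the panel median (−0.57, adjusted exact p = 0.083). In all, 7 ratios were higher and 2 lower. No member with a higher ratio was itself called higher, and the panels of these members all had negative median log2 fold changes. No ratio passed without replicate 2 or 3 of the libraries labelled *FcγRIIB*-/-, at a smallest adjusted p of 0.0513 in each case, where the exact p cannot go below 0.0179. With 1 of these mice left out, 9 of the 23 ratios had to reach that smallest p together to pass. The calls there stand or fall as a set and say little of any single ratio. With a WT mouse left out the exact p cannot go below 0.0286, and at least 14 of the 23 ratios would have to reach it for any to pass, so that setting does not bear on the ratios. What part the panels have in the members' own levels was not tested.

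**Figure D4:**
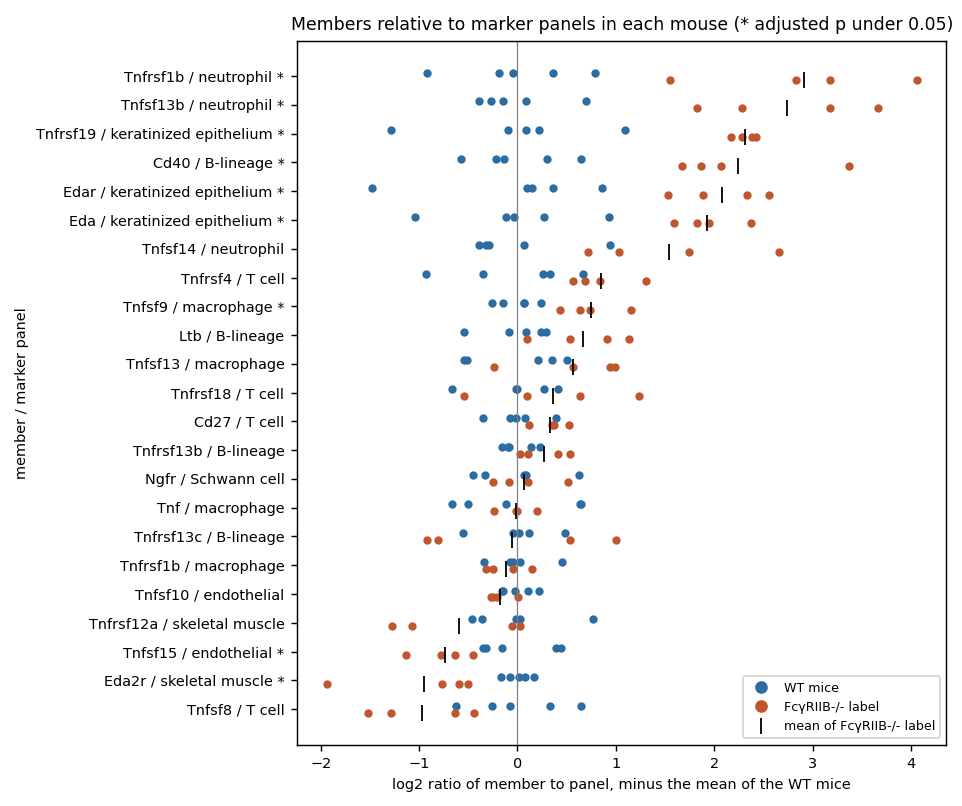
Log2 ratio of a member to a marker panel in each mouse, minus the mean of the WT mice (horizontal axis), for 23 pairs of member and panel (WT in blue, libraries labelled *FcγRIIB*-/- in orange, tick at their mean, asterisk where adjusted p was under 0.05). *Tnfrsf13c* over the B-lineage panel scatters about 0 in both groups (mean −0.06), while *Tnfrsf1b* over the neutrophil panel lies above every WT mouse (mean 2.91).

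Genes of the pathway around these receptors were taken from 6 lists. Of their 79 tested genes, 15 were lower (19.0%, against 19.3% of all tested genes) and 3 higher (3.8%, against 14.0%), so the lower share was at the background. Among 17 adaptors and death domain proteins, 1 was lower and 0 were higher, the lower one being *Traf6*, a ubiquitin ligase also used by RANK and CD40 (log2 fold change −0.36, standard error 0.06, adjusted p = 0.00201). Of 20 ubiquitin ligases, deubiquitinases and kinases, 7 were lower and 0 higher. The largest changes were in *Tnfaip3*, the NF-κB inhibitor A20 (−0.70, standard error 0.21, adjusted p = 0.0288), and in *Birc3*, which encodes cIAP2 (−0.43, standard error 0.13, adjusted p = 0.0299). Of 11 NF-κB subunits and inhibitors only *Rel* was called, the subunit c-*Rel* of lymphoid and myeloid cells (−1.53, standard error 0.21, adjusted p = 0.00089). The median log2 fold change of these 3 lists was −0.03, −0.04 and −0.03.

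Among 23 genes known to respond to TNF or NF-κB, 20 were tested, 3 were lower and 2 higher, with a median of −0.15. The largest falls were in *Mmp9*, a gelatinase of neutrophils and osteoclasts (−1.84, standard error 0.32, adjusted p = 0.0024), and in *Vcam1*, an adhesion molecule (−0.72, standard error 0.16, adjusted p = 0.00667). *Gadd45b*, a stress response gene (0.45, standard error 0.12, adjusted p = 0.0178), and *Sod2*, the mitochondrial superoxide dismutase (0.21, standard error 0.06, adjusted p = 0.0265), were higher. Neutrophil and osteoclast markers moved in the same direction as *Mmp9*, 12 of 12 and 7 of 8 being lower. Of the 5 superfamily genes outside the set, *Tnfrsf11b*, the decoy receptor osteoprotegerin, was lower (−0.91, standard error 0.24, adjusted p = 0.0151) and *Relt*, an orphan receptor, was higher (0.67, standard error 0.19, adjusted p = 0.0204), a call lost without replicate 2 or 4 of the libraries labelled *FcγRIIB*-/-. Of 6 proteins that process or transport ligands 2 were lower, *Adam17*, the protease that sheds TNF (−0.24, standard error 0.08, adjusted p = 0.0394), and *Itch* (−0.22, standard error 0.07, adjusted p = 0.0375), and both calls were lost with RLE normalization and without any 1 of the WT mice.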

How the data were processed

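Whole mandibles with teeth of 9 mice were profiled by stranded poly(A) RNA-seq. Reads were trimmed by the authors (Trim Galore), aligned to the mm10 genome (HISAT 02.1.0) and summed per gene (featureCounts), and raw counts were deposited for 27179 rows. The annotation, the strand setting and the handling of reads shared by several genes were not given in the sources used here. The count table also holds 1 column that matches no labelled sample, and it was not used. Groups and replicate numbers came from the sample titles, and the mice that share a number are different animals.

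The members and gene lists were chosen with earlier results of these data known. Counts of all genes were analysed in R 4.3.3 with edgeR 4.0.16, using filterByExpr (minimum count 10), TMM and the quasi-likelihood test of genotype without a covariate. p-values were adjusted by Benjamini-Hochberg over the 16329 tested genes, with 0.05 as threshold. Standard errors were derived from the fold change and its F statistic. CPM used TMM-scaled library sizes, log2 CPM a prior count of 2, and RPKM the exon length in GENCODE. Values in every mouse are given for members past the threshold, for *Tnf*, *Tnfrsf1a* and *Tnfrsf1b* and for known partners with a mean of at least 1 CPM, and other tested members by ranges in CPM. From each pathway list at most 2 called genes in each direction are named. Single panel markers were named after their values were seen. Ratios of members to panels were differences of log2 CPM, tested by exact permutation. Alternatives were other normalizations, filters, thresholds, prior counts and panel summaries, DESeq2 1.42.0, a replicate block and the removal of each mouse. Promoters were RefSeq sequences, searched on both strands for the PU.1 and RUNX cores and the NF-κB consensus. Reads were counted without molecular identifiers, and genes with few counts carry counting error beside the spread between mice. No 2 libraries within a group agreed within sampling noise.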

Additional observations from a re-analysis of the deposited data

Results flagged for a closer look

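In 8 of 68 groups of mice, each a tested member in 1 genotype, a single mouse stood apart from the others of its group by Dixon's criterion, which chance meets in about 1 of 20 groups. All 8 were WT replicate 2, as the highest mouse. It had 15.5 CPM of *Ltb* against 4.04 to 5.74 CPM in the other WT mice, 48.8 CPM of *Tnfrsf1b* against 25.9 to 32.1, 2.53 CPM of *Tnfrsf13b* against 0.501 to 0.869 and 5.30 CPM of *Tnfrsf13c* against 1.0 to 1.64. It also had 2.21 CPM of *Tnfsf8* against 0.698 to 1.09, 3.29 CPM of *Tnfrsf9* against 0.898 to 1.43, 2.61 CPM of *Tnfrsf18* against 0.925 to 1.25 and 3.45 CPM of *Cd27* against 0.694 to 1.06. The groups are not independent, since members of the same cells share the mouse. The share of such groups over all tested genes was not computed, so 8 of 68 cannot be called particular to these members. The same mouse led the summed level of the T cell panel, at 87.0 CPM with no other WT mouse above 30.5 CPM, and of the B-lineage panel, at 129 CPM with no other above 56.8 CPM. That mouse also had the highest mean log2 CPM in every pathway list and in the osteoblast and Schwann cell panels. It was the lowest WT mouse for skeletal muscle and keratinized epithelium.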

How the results depend on the processing

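The reported fit had 10 lower and 2 higher members, where 3144 of all 16329 tested genes were lower and 2289 higher. Requiring at least 10 counts in every sample gave 6 lower members, where 2687 of 15038 genes were lower. This setting left out *Tnfrsf13b*, *Tnfrsf13c*, *Tnfsf14* and *Tnfsf8*, which have low counts. An adjusted p under 0.01 gave 5 lower and 0 higher, where 1763 and 869 of all 16329 genes were lower and higher. Without a filter on low counts 9 were lower and 1 higher, against 3116 and 2001 of 21948 genes, and *Tnfrsf19* and *Tnfrsf12a* were lost. With single mice left out there were 7 to 10 lower and 0 to 2 higher members. Over all genes these fits called 2521 to 2771 lower and 1781 to 2292 higher. No higher member remained called without WT replicate 4 or without replicate 2 or 3 of the libraries labelled *FcγRIIB*-/-. RLE and upper quartile normalization gave 9 lower and 2 higher, where 2964 and 2966 of all genes were lower and 2511 and 2495 higher. No named member changed direction where it had been called. The pathway lists had 15 lower (19.0% of 79 tested, against 19.3% of all genes) and 3 higher genes, at an adjusted p under 0.01 they had 7 and 0, and without single mice 10 to 17 and 2 to 4. The 7 lower ubiquitin ligases, deubiquitinases and kinases became 4 without WT replicate 5, 4 without replicate 1 and 3 without replicate 4 of the libraries labelled *FcγRIIB*-/-, and 1 of the 2 higher response genes was called without WT replicate 4 or replicate 3 of those libraries. Of the ratios to panels, 9 passed as reported and 5 with the panel median. With single mice left out 0 to 9 passed, 9 without replicate 1 or 4 of the libraries labelled *FcγRIIB*-/- and 0 without replicate 2 or 3 of them. In those fits 9 ratios had to reach the smallest exact p of 0.0179 together to pass, so they stand or fall as a set. The 0 without any WT mouse says nothing of stability, since the exact p cannot go below 0.0286 there. Replicate numbers did not pair the mice. Deviations of mice with the same number correlated at 0.10, 0.03, −0.11 and −0.07, and 1 of 8 mice correlated best with its own number. With the replicate block 7 members were lower and 0 higher, without *Tnfrsf13b*, *Ltb*, *Tnfsf14*, *Tnfrsf12a* and *Tnfrsf25*. In that fit 2410 of all 16329 genes were lower and 1594 higher.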
